A study of Mus musculus with 3 samples.

Results

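The genes described here are 46 genes of the striated muscle sarcomere and of the myogenic programme: myosin heavy and light chains, actins, troponins, tropomyosins, titin, nebulin and their partners, muscle energy and calcium genes, and the myogenic transcription factors. They were chosen by name, with earlier results of these data known. Each was represented by its brightest probe set, taken by mean log2 signal, out of 18193 genes that had a probe set of their own. Their RNA was measured in 3 primary cultures of mouse ocular pigment epithelium, on 1 array each: retinal (RPE), ciliary body (CBPE) and iris (IPE) pigment epithelium. The donors were adult C57BL/6 mice of 6 to 8 weeks with no stated genetic change or treatment, and neither the number of donors nor any pooling is given in the sources used here. RPE came from a trypsin-treated posterior eyecup cut free of the ciliary body and was grown in DMEM with 20% serum. CBPE and IPE came from dissected ciliary body and iris treated with Dispase and DNase I and were grown in RPMI 1640 with 10% serum. All 3 cultures spent the last night without serum. Cytokeratin-positive cells were stated to exceed 95% in RPE and in CBPE, each after 14 days, and 99% in IPE by flow cytometry. No day of culture is listed for IPE. Tissue, dissection, any difference in culture time and, for RPE, medium and serum cannot be told apart. Each value below is a single measurement with no replicate error.

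Striated muscle contracts when myosin heads of the thick filament pull on actin of the thin filament. Calcium released from the sarcoplasmic reticulum binds troponin C, troponin and tropomyosin then uncover the myosin sites on actin, and titin, nebulin and the Z-disc proteins hold the filaments in register. Fast, slow, cardiac and developmental fibres use different genes for the same parts, and some parts, above all the tropomyosins, are also made in non-muscle cells. In skeletal muscle this programme is switched on by the factors encoded by Myf5, Myod1 and Myog, which bind the E-box motif, and Pax7 marks its satellite cells.

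The promoters shown are those of 3 of the 4 members with the largest difference between RPE and CBPE, Mylpf, Myl1 and Tnnc2, and that of Myh2, added after its values were seen because it was not at least 2-fold higher in RPE relative to CBPE as they were. The remaining one of the 4, Nebl, has 4 start sites in the RefSeq table, and none of them is shown. Each line holds the 250 bases before the start site of the RefSeq gene on assembly GRCm38.p6, read 5′ to 3′ on the strand of the gene, with capitals marking the E-box motif CANNTG. The Mylpf window lies at chr7:127211358-127211607 on the plus strand, the Myl1 window at chr1:66945057-66945306 on the minus strand, the Tnnc2 window at chr2:164779735-164779984 on the minus strand and the Myh2 window at chr11:67170777-67171026 on the plus strand.
Mylpf: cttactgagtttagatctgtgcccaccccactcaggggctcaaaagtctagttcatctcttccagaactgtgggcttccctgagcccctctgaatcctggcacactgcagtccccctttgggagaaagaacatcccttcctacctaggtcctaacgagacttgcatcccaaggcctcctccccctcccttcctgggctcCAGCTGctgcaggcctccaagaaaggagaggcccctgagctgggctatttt
Myl1: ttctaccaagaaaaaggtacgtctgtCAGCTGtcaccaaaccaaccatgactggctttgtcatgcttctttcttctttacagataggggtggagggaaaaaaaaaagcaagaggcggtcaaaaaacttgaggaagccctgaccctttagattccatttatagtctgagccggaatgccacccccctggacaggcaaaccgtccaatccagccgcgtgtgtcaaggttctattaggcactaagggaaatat
Tnnc2: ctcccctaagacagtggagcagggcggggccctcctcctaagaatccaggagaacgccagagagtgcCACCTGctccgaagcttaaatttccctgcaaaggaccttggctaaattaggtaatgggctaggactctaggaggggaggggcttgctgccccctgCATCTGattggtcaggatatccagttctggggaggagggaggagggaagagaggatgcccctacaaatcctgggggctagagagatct
Myh2: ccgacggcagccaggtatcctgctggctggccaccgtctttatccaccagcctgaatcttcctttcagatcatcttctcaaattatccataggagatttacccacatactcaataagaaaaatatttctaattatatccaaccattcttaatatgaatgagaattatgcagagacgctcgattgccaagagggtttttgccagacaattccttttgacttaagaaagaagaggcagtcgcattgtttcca
Mylpf and Myl1 each held 1 E-box of the form CAGCTG, starting 51 and 224 bases before the start site, and Tnnc2 held CACCTG at 183 and CATCTG at 88 bases before it. The Myh2 window held no CANNTG. Other members at least 2-fold higher in RPE relative to CBPE are not shown. Among them, windows of Acta1, Tnnc1, Mb and Atp2a1 held a CANNTG, that of Myl4 held none, and those of Nebl differed by start site. Of all promoters in the RefSeq table, 66.2% held a CANNTG in these 250 bases. A relation of the motif to the culture differences was not tested.

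A gene was counted as measured above the floor when its signal exceeded the median signal of all non-control probe sets of that array, which was 16.8 for RPE, 17.3 for CBPE and 14.5 for IPE. Signals are linear intensity values on the scale the authors deposited. Probe sets for bacterial transcripts that the samples do not hold reached 16.6 on the RPE array, 20.2 on the CBPE array and 7.9 on the IPE array. Where the dimmer signal did not exceed the higher of its floor and these controls, the fold is written as "at least" and taken against that limit, 16.8 in RPE, 20.2 in CBPE and 14.5 in IPE. The spiked hybridisation controls were dimmest on the IPE array, with a geometric mean of 1941 in RPE, 3192 in CBPE and 1239 in IPE, and the IPE array also had the lowest Actb 3′ to 5′ ratio, at 2.25 in RPE, 2.26 in CBPE and 1.503 in IPE. The part of these array differences in the results was not tested.

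Of the 46 members, 30 were above the floor in RPE, 23 in CBPE and 14 in IPE, against 63.8% of all genes in RPE, 65.3% in CBPE and 62.9% in IPE. Thus 65.2% of the members were above the floor in RPE, 50% in CBPE and 30.4% in IPE. Against the limit of 20.2 set by the absent controls, 21 members passed in CBPE. In all, 33 members passed on at least 1 array, 11 of them on all 3. A further 9 passed in RPE and CBPE but not in IPE, and 8 passed in RPE alone, namely Myh3, Myh4, Myh8, Tnnc2, Tnnt2, Tnnt3, Mb and Atp2a1. Actn2 and Mybpc1 passed in CBPE alone, and no member passed in IPE alone. The other 13 members were at or under the floor everywhere. Among those that passed, 20 had their highest signal in RPE, 12 in CBPE and 1, Nebl, in IPE.

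**Figure D1:**
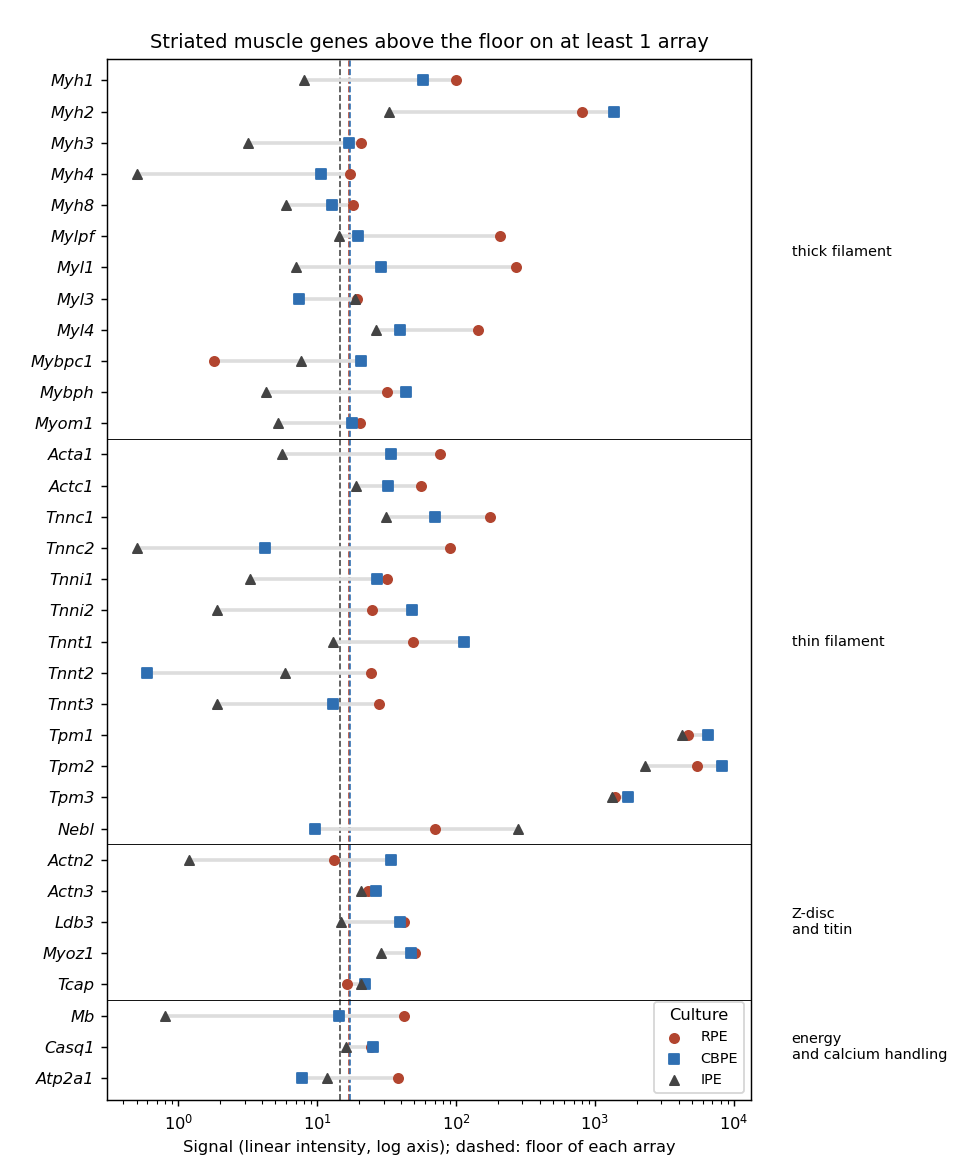
Signals (linear intensity, log axis) of the 33 members that passed a floor on any array, 1 point per array, with the floors of 16.8 (RPE), 17.3 (CBPE) and 14.5 (IPE) as dashed lines and the members grouped by role. RPE points stand apart to the right for Mylpf, Myl1, Myl4, Tnnc1 and Tnnc2, CBPE points for Myh2 and Tnnt1, and the IPE point for Nebl.

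Described by its defining markers alone, the label of the gene group held in RPE, less firmly in CBPE and not in IPE. These markers are members chosen with earlier results of these data known, so their signals are no test of the label. The label did not hold for the myogenic factors on any array. Other sarcomere genes, among them Ttn, Neb, Myh7, Mybpc2, Myom2 and Myoz2, were under every floor by their chosen probe sets. The share of members above the floor was close to that of all genes in RPE and lower in CBPE and IPE. The defining markers of the group, Myh2, Mylpf and Myl1, were all above the floor in RPE and CBPE, and Myh2 alone in IPE. Mylpf in CBPE, at 19.8, was under the 20.2 that the absent controls reached on that array. None of the 4 myogenic transcription factors was above the floor on any array. By the chosen probe sets, their highest signal was 6.8 in RPE, 7.4 in CBPE and 7 in IPE. Myod1 was at 6.8 in RPE, 7.4 in CBPE and 5.8 in IPE, Myog at 5.5 in RPE, 2.1 in CBPE and 1.2 in IPE, Myf5 at 4.8 in RPE, 1.6 in CBPE and 0.2 in IPE, and Pax7 at 1.7 in RPE, 1.8 in CBPE and 7 in IPE. A second Myod1 probe set, at 11.2 in RPE, 3.5 in CBPE and 6.3 in IPE, was also under every floor. These 4 genes were not detectable over the background of these arrays, which does not show that they were absent. In a whole culture, fewer muscle cells and less muscle RNA per cell cannot be told apart.

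In RPE against IPE, 16 members were at least 2-fold higher and 1 was at least 2-fold lower, among 31 measured above the floor on either array. Of all 12392 genes measured there, 9.87% were higher, 10.5% lower and 20.3% changed either way by that amount. The median log2 difference was 1.12 over the measured members and 0.02 over all measured genes, and a member that passed only in RPE could not have come out lower. For 10 of the 16 higher members IPE was at the floor, so their folds are bounds.

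In CBPE against IPE, 25 members were measured, of which 11 were higher by 2-fold or more and 1 was lower, against 11.7% higher, 12.5% lower and 24.3% either way among 12741 genes. The median log2 difference was 0.76 over the measured members and 0.04 over all measured genes. IPE was at the floor for 7 of the 11, and a member above the floor in CBPE but not in IPE could not have come out lower. Both comparisons use the same IPE array.

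In RPE against CBPE, 33 members were measured, of which 9 were higher by 2-fold or more and 2 were lower, against 3.72% higher, 4.19% lower and 7.91% either way among 12770 genes. The median log2 difference was 0.17 over the measured members and 0 over all measured genes, and 22 of the 33 were within 2-fold. CBPE was at the floor for 4 of the 9 higher members, and RPE for 1 of the 2 lower ones. Mylpf, another of the 9, was at 19.8 in CBPE, under the 20.2 of the absent controls. A member above only the RPE floor could not have come out 2-fold lower, nor one above only the CBPE floor 2-fold higher.

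**Figure D2:**
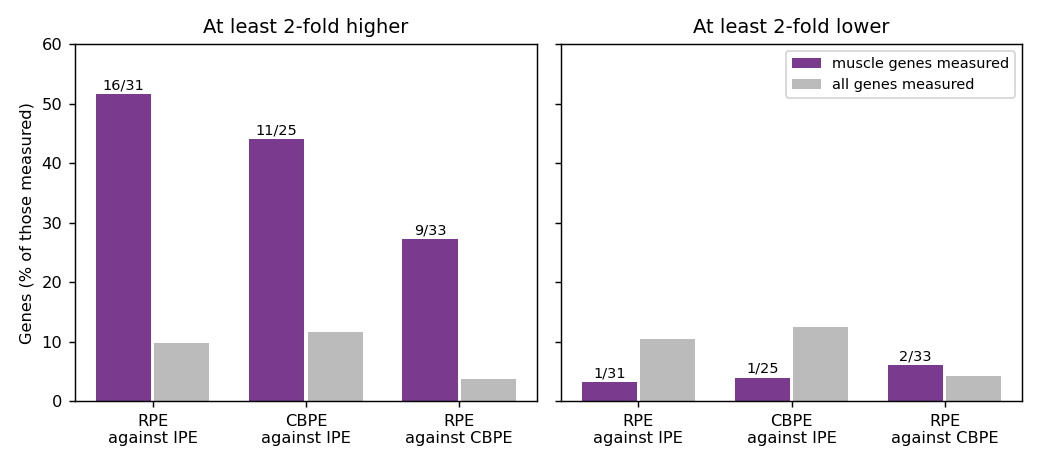
Percentage of measured genes at least 2-fold higher (left panel) or lower (right panel) in each comparison, for the muscle genes (purple, with counts over the number measured) and for all genes (grey). A gene is measured where it is above the floor on either array, and the share of muscle genes that were higher was 16 of 31 in RPE against IPE, 11 of 25 in CBPE against IPE and 9 of 33 in RPE against CBPE.

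With 1 array per culture, the spread among several probe sets for a gene was the one error available. Its pooled SD of the log2 difference, for probe sets whose brighter signal was under 100, was 0.65 for RPE against IPE, 0.67 for CBPE against IPE and 0.53 for RPE against CBPE. Between 100 and 1000 it was 0.63 for RPE against IPE, 0.65 for CBPE against IPE and 0.37 for RPE against CBPE. The differences of 14 of the 16 members higher in RPE relative to IPE were larger than 2 of these SDs, as were 7 of the 11 in CBPE against IPE and, with the CBPE floor of 17.3, 9 of the 9 in RPE against CBPE. With the limit of 20.2 in CBPE, RPE minus CBPE was 1.05 for Mb and 0.91 for Atp2a1, both within 2 SDs. The differences of Mybph and Tnni1 in RPE against IPE, and of Myl1, Acta1, Tnnc1 and Actn2 in CBPE against IPE, were within 2 SDs, as was that of Actn2, one of the 2 members lower in RPE against CBPE. Differences between mice, cultures or array runs do not enter this SD. Only probe sets of a gene that were above a floor and in the same signal range were compared. Disagreement with a probe set under every floor, as for Myl4, Myh1 and Mb, is therefore left out, and the SD can be too small for such genes.

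Of the 16 thick filament members, 12 passed a floor on any array. They numbered 11 in RPE, 8 in CBPE and 3 in IPE. Of all genes, 63.8% were above the floor in RPE, 65.3% in CBPE and 62.9% in IPE. In RPE against IPE 11 members were measured, of which 6 were at least 2-fold higher and none was lower. Among all genes measured there, 9.87% were higher and 10.5% lower. A member above the floor in RPE and not in IPE could not have come out lower. Myh2, the heavy chain of fast 2A fibres, was at a signal of 808.8 in RPE, 1363 in CBPE and 32.8 in IPE. RPE exceeded IPE 24.7-fold and CBPE exceeded IPE 41.5-fold, and the signal was 1.68-fold lower in RPE relative to CBPE, short of 2-fold. Its single probe set leaves no second measurement of the same transcript on these arrays.

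Myl1, which encodes the essential light chains of fast fibres, was at 270.6 in RPE, 29 in CBPE and 7 in IPE. It was 9.33-fold higher in RPE relative to CBPE and at least 18.7-fold higher relative to IPE. Mylpf, the fast regulatory light chain, was at 207.7 in RPE, 19.8 in CBPE and 14.3 in IPE, at least 10.3-fold above CBPE and at least 14.3-fold above IPE. Both fast light chains were highest in RPE, with CBPE near its floor. The Myh2 signal was highest in CBPE, but its RPE minus CBPE difference of -0.75 on the log2 scale was within 2-fold and became -0.035 with scaling to the hybridisation controls.

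Myl4, an essential light chain of atrial and embryonic muscle, followed the light chains, at 142.6 in RPE, 39.7 in CBPE and 26.5 in IPE. It was 3.59-fold higher in RPE relative to CBPE and 5.38-fold higher relative to IPE, and a second probe set lay under the floor on every array. With the mean of both, RPE minus CBPE became -0.17 on the log2 scale. Myh1, the heavy chain of fast 2X fibres, was at 99 in RPE, 57.7 in CBPE and 8 in IPE. It was at least 6.83-fold higher in RPE relative to IPE and 1.72-fold higher relative to CBPE. A second Myh1 probe set gave 97.5 in RPE, 40.1 in CBPE and 0.6 in IPE, and another was under the floor everywhere. The fast heavy chain genes are close paralogs, and the brightest Myh1 probe set carries the suffix of cross-matching probe sets, so its signal may include related myosins. With cross-matching probe sets removed, Myh1 stayed at least 2-fold higher in RPE and in CBPE relative to IPE. Matches of the second probe set to related myosins were not tested.

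The rest of the thick filament had signals close to the floors. Mybph, which encodes myosin-binding protein H, was at 32 in RPE, 43.8 in CBPE and 4.3 in IPE, so that RPE exceeded IPE at least 2.21-fold and CBPE exceeded IPE at least 3.02-fold. The embryonic heavy chain Myh3 was at 20.6 in RPE, 16.9 in CBPE and 3.2 in IPE, the perinatal Myh8 at 18.1 in RPE, 12.8 in CBPE and 6 in IPE, and Myh4, the heavy chain of fast 2B fibres, at 17.2 in RPE, 10.7 in CBPE and 0.5 in IPE. The M-band gene Myom1 was at 20.3 in RPE, 17.7 in CBPE and 5.2 in IPE. All 4 exceeded the RPE floor by little. Mybpc1, the slow myosin-binding protein C, was at 20.6 in CBPE, close to the 20.2 of the absent controls, and the slow light chain Myl3 was at 19.4 in RPE, 7.4 in CBPE and 18.8 in IPE. Myh7, Myl2, Mybpc2 and Myom2, which serve slow and cardiac fibres, fast myosin and the M-band, were under the floor on all 3 arrays. Another Myom2 probe set reached 18.9 in CBPE. The 2 probe sets listed for both Myh7 and Myh6 were at most 2.1 on any array.

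Of the 14 thin filament members, 13 were above the floor in RPE, 9 in CBPE and 6 in IPE. The shares of all genes were 63.8% in RPE, 65.3% in CBPE and 62.9% in IPE. The calcium sensors were higher in RPE than in both others. Tnnc2, the fast troponin C, was at 89.8 in RPE, 4.2 in CBPE and 0.5 in IPE, so that RPE exceeded CBPE at least 4.45-fold and IPE at least 6.19-fold. Tnnc1, the troponin C of slow and cardiac fibres, was at 176.5 in RPE, 70.7 in CBPE and 31.1 in IPE. It was 2.50-fold higher in RPE relative to CBPE and 5.68-fold higher relative to IPE.

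The actins had the same order. Acta1, skeletal alpha-actin, was at 76.1 in RPE, 33.7 in CBPE and 5.6 in IPE, so that RPE exceeded CBPE 2.26-fold and IPE at least 5.25-fold. Actc1, cardiac alpha-actin, was at 55.9 in RPE, 32.3 in CBPE and 19.1 in IPE, which is 2.93-fold higher in RPE relative to IPE and 1.73-fold higher relative to CBPE.

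Tnnt1 and the brightest Tnni2 probe set were highest in CBPE, and the other troponins in RPE. Tnnt1, the slow troponin T, was at 48.5 in RPE, 113.6 in CBPE and 12.9 in IPE, and was thus 2.34-fold lower in RPE relative to CBPE and at least 3.34-fold higher in RPE relative to IPE. Tnni2, the fast troponin I, was at 24.7 in RPE, 47.8 in CBPE and 1.9 in IPE by its brightest probe set. A second Tnni2 probe set reversed RPE and CBPE, at 50.3 in RPE, 15 in CBPE and 1.3 in IPE, so the order of these cultures is unsettled for this gene. Tnni1, the slow troponin I, was at 31.6 in RPE, 26.8 in CBPE and 3.3 in IPE, so that RPE exceeded IPE at least 2.18-fold. Tnnt3, the fast troponin T, was at 28 in RPE, 12.9 in CBPE and 1.9 in IPE, and Tnnt2, the cardiac one, at 24.3 in RPE, 0.6 in CBPE and 5.9 in IPE. Neither Tnnt3 nor Tnnt2 reached 2-fold over the floors of the other arrays.

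The tropomyosins were above the floor on all 3 arrays. Tpm1 was at 4648 in RPE, 6469 in CBPE and 4248 in IPE, and Tpm3 at 1385 in RPE, 1724 in CBPE and 1328 in IPE, with no difference of 2-fold. Tpm2 was at 5444 in RPE, 8129 in CBPE and 2279 in IPE, so that RPE exceeded IPE 2.39-fold and CBPE exceeded IPE 3.57-fold. All 4 Tpm2 probe sets placed CBPE first and IPE last. With quantile normalization Tpm2 fell short of 2-fold in RPE against IPE, and with scaling to the hybridisation controls in both. Of the Tpm3 probe sets, one was 2.42-fold lower in RPE relative to IPE, at 165 in RPE, 167.7 in CBPE and 399.9 in IPE, against the order of the brightest. Transcripts of these genes also occur in smooth muscle and non-muscle cells, and the smooth muscle markers summed to signals of 17071 in RPE, 25818 in CBPE and 12180 in IPE. Acta2 gave the largest part, at 9769 in RPE, 14300 in CBPE and 5496 in IPE. Myh11, at 40 in RPE, 22.1 in CBPE and 99.4 in IPE, and Mylk were highest in IPE. The other markers above a floor were highest in CBPE. The part of smooth muscle in the tropomyosin signals was not tested.

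Nebl was the 1 member at least 2-fold below IPE in both other cultures. This gene, which encodes nebulette, a nebulin relative of cardiac Z-discs that also has a non-muscle form, was at 70.3 in RPE, 9.6 in CBPE and 277.4 in IPE, 3.95-fold lower in RPE and at least 13.7-fold lower in CBPE relative to IPE. A second Nebl probe set also placed IPE above both, at 1.2 in RPE, 5.8 in CBPE and 56.1 in IPE, with RPE and CBPE both under their floors. Neb, the nebulin of skeletal muscle, was at 0.6 in RPE, 0.5 in CBPE and 0.9 in IPE.

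Of the 7 Z-disc and titin members, 3 were above the floor in RPE, 5 in CBPE and 4 in IPE. The shares of all genes were 63.8% in RPE, 65.3% in CBPE and 62.9% in IPE. Ldb3, a PDZ-LIM protein of the Z-disc, was at 42.3 in RPE, 39.2 in CBPE and 14.9 in IPE, so that RPE exceeded IPE 2.84-fold and CBPE exceeded IPE 2.63-fold. Actn2, the sarcomeric alpha-actinin, was at 13.1 in RPE, 33.9 in CBPE and 1.2 in IPE, at least 2.34-fold higher in CBPE relative to IPE and at least 2.02-fold lower in RPE relative to CBPE. The calsarcin gene Myoz1 was at 50.4 in RPE, 47.5 in CBPE and 29 in IPE, the fast alpha-actinin Actn3 at 23.1 in RPE, 26.3 in CBPE and 20.5 in IPE, and the titin cap Tcap at 16.4 in RPE, 22 in CBPE and 20.7 in IPE, with no difference of 2-fold. The chosen probe set of Ttn, which encodes titin, was at 5.9 in RPE, 10.9 in CBPE and 10 in IPE, and of its 6 probe sets only 1 passed a floor, at 18.5 in CBPE. Myoz2 was at 5.5 in RPE, 7.7 in CBPE and 6.4 in IPE.

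Among the energy and calcium genes, Mb, which encodes the oxygen store myoglobin, was at 41.9 in RPE, 14.4 in CBPE and 0.8 in IPE, so that RPE exceeded CBPE at least 2.07-fold and IPE at least 2.89-fold. Atp2a1, the fast calcium pump, was at 38 in RPE, 7.8 in CBPE and 11.8 in IPE, so that RPE exceeded CBPE at least 1.88-fold and IPE at least 2.62-fold. Against the CBPE floor of 17.3 it passes 2-fold, and against the 20.2 of the absent controls it does not. Casq1, a calcium store protein of the reticulum, was within 2-fold on all arrays, at 24.2 in RPE, 25 in CBPE and 16.1 in IPE. Ckm, muscle creatine kinase, was under the floor throughout, at 14.3 in RPE, 3.7 in CBPE and 13.9 in IPE, as was the release channel gene Ryr1, at 4.1 in RPE, 6.2 in CBPE and 5 in IPE.

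**Figure D3:**
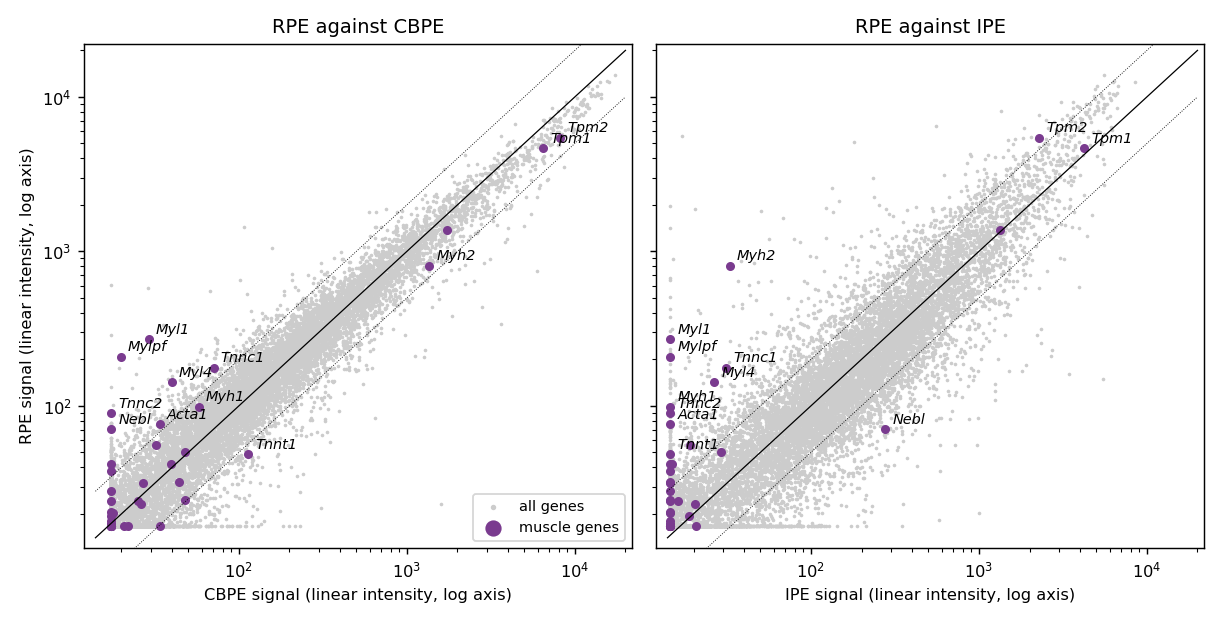
Signal in RPE (vertical, log axis) against CBPE (left panel) and IPE (right panel), for all genes (grey) and the muscle genes (purple), with values under a floor raised to it, the solid line at equality and dotted lines at 2-fold. Myl1, Mylpf, Myl4 and Tnnc2 lie above the upper dotted line in both panels, whereas Myh2 does so against IPE and lies below equality against CBPE.

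Further lists of muscle genes were counted in the same way. Those measured in RPE against IPE were 4 of 10 acetylcholine receptor and junction genes, 11 of 17 coupling genes and 9 of 14 fusion and later myogenic genes. Of all genes measured in that comparison, 9.87% were higher and 10.5% lower. Of 10 acetylcholine receptor and neuromuscular junction genes, none was at least 2-fold higher in RPE relative to IPE or CBPE. The receptor subunit Chrna1 was under the floors, at 14.6 in RPE, 2.2 in CBPE and 11.1 in IPE. Lrp4, also used outside muscle, was at 21 in RPE, 30.2 in CBPE and 209.6 in IPE. Of 17 excitation-contraction coupling genes, 3 were higher in RPE relative to IPE and none lower. They were Mrln, which encodes the calcium pump inhibitor myoregulin, at 49.6 in RPE, 49.5 in CBPE and 12.5 in IPE, the release channel gene Ryr3 at 66.7 in RPE, 21 in CBPE and 19 in IPE, and Casq2 at 33.2 in RPE, 22.8 in CBPE and 12.8 in IPE. Of 14 fusion and later myogenic genes with a probe set, 2 were higher in RPE relative to IPE and 2 lower, and the fusion gene Mymk was at 4.5 in RPE, 0.9 in CBPE and 0.8 in IPE. On any array, 5 of the 10 junction genes, 11 of the 17 coupling genes and 10 of the 14 fusion and later myogenic genes passed a floor. The share of all genes passing on any array was not counted. On single arrays it was 63.8% in RPE, 65.3% in CBPE and 62.9% in IPE. The defining genes Chrna1, Chrnd, Musk, Cacna1s and Mymk passed no floor. Other genes of the same classes, named after their values were seen, did pass. The receptor subunit Chrnb1 was at 38.2 in RPE, 42.6 in CBPE and 27.7 in IPE, and the fusion gene Mymx at 17.6 in RPE, 7.7 in CBPE and 1.5 in IPE. The transcription factor gene Mef2c was at 39.7 in RPE, 19.1 in CBPE and 8.4 in IPE, and the cadherin gene Cdh15 at 15.2 in RPE, 33.3 in CBPE and 12.3 in IPE.

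Of 23 further sarcomere and Z-disc genes, 13 were measured in RPE against IPE, with 1 higher and 1 lower. In CBPE against IPE 11 were measured, with 3 higher and 1 lower. Those 3, Myot at 18.3 in RPE, 74.5 in CBPE and 6.8 in IPE, Ankrd23 at 10.4 in RPE, 47 in CBPE and 17.2 in IPE, and Pdlim3 at 28.1 in RPE, 72.8 in CBPE and 17.6 in IPE, were also at least 2-fold lower in RPE relative to CBPE. The intermediate filament gene Des was at 32.4 in RPE, 28.5 in CBPE and 91.3 in IPE. Of 8 dystrophin complex genes, 6 were measured in RPE against IPE and none of them differed by 2-fold. In CBPE against IPE 6 were measured, with 2 higher. Of 14 muscle metabolism genes, 8 were measured in RPE against IPE, with 2 higher and 3 lower. The cytochrome oxidase subunit Cox6a2 was at 72.7 in RPE, 54.7 in CBPE and 19.7 in IPE.

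Of 8 cardiac-restricted genes, 1 was above the floor in RPE, 2 in CBPE and 0 in IPE, with Mybpc3 at 20.3 in RPE, 25.8 in CBPE and 8 in IPE and Myh6 at 0.5 in RPE, 6.2 in CBPE and 1.2 in IPE. The list of extraocular and slow-tonic myosins had 2 genes with a probe set. Myh7b was under every floor, at 14.2 in RPE, 14.7 in CBPE and 1.1 in IPE. Myh14, which encodes a non-muscle myosin heavy chain, was at 19.1 in RPE, 34.6 in CBPE and 4.1 in IPE. All 11 genes on the list of non-muscle myosins and cytoskeletal isoforms were above every floor. Of these, 0 were higher or lower in RPE relative to IPE and 2 were higher in CBPE relative to IPE. Markers of other cell types differed between the same arrays. Of all genes measured in RPE against IPE, 9.87% were higher and 10.5% lower. Tendon markers summed to 7562 in RPE, 8596 in CBPE and 233.8 in IPE, and 4 of 6 were higher in RPE relative to IPE. In CBPE relative to IPE 6 of 6 were higher, against 11.7% of all genes. Fibroblast markers summed to 50697 in RPE, 65223 in CBPE and 33689 in IPE, with 3 of 10 higher in RPE relative to IPE and 2 lower. Smooth muscle markers had 2 of 8 measured higher and 2 lower in RPE relative to IPE, and Myocd was under the floor on every array. Leukocyte markers summed to 396.2 in RPE, 1776 in CBPE and 230 in IPE. Of these, 3 of 5 measured were lower in RPE relative to CBPE, against 4.19% of all genes. Lyz2 gave the largest part, at 231.6 in RPE, 1288 in CBPE and 130.9 in IPE, and Ptprc was under every floor. Cytokeratins summed to 294.9 in RPE, 563.8 in CBPE and 223.5 in IPE, with none higher and 1 lower in RPE relative to IPE. Melanin markers summed to 1464 in RPE, 537.5 in CBPE and 4472 in IPE, with 6 of 6 measured lower in RPE relative to IPE. Of 6 retinal pigment epithelium markers, 1 was above the floor on the RPE array. This was Rlbp1, at 17.3 in RPE, 5.3 in CBPE and 84 in IPE, 4.86-fold lower in RPE relative to IPE. Rpe65 was at 2.4 in RPE, 1 in CBPE and 1 in IPE. The part of these cell types in the muscle gene signals was not tested.

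The calls rested on the floor and on the scaling to different degrees. With a fixed floor of 100, the members still at least 2-fold higher were Myh2, Mylpf, Myl1 and Tpm2 in RPE against IPE, Myh2 and Tpm2 in CBPE against IPE, and Mylpf and Myl1 in RPE against CBPE. Scaling to the hybridisation controls moved the median of all genes to -0.63 for RPE minus IPE, to -1.33 for CBPE minus IPE and to 0.72 for RPE minus CBPE, whereas the member medians became 0.48 for RPE minus IPE, -0.61 for CBPE minus IPE and 0.88 for RPE minus CBPE. This scaling shifts every gene of an array alike. Under it Myl1, Acta1, Tnnc1 and Actn2 were within 2-fold between CBPE and IPE, and Myh2 and Tnnt1 were at least 2-fold higher in CBPE. With the mean of all probe sets, Myh1, Myl4, Ldb3 and Mb fell short of 2-fold in RPE against IPE. With cross-matching probe sets removed, Tnni2 did so in CBPE against IPE. Under all 8 alternatives Myh2, Mylpf and Myl1 were at least 2-fold higher in RPE relative to IPE, Mylpf and Myl1 in RPE relative to CBPE, and Myh2 in CBPE relative to IPE, while Nebl was at least 2-fold lower in RPE and in CBPE relative to IPE. Averaging probe sets or removing cross-matching ones could not move Myh2, Mylpf or Myl1, which have 1 probe set each, and the floor at the absent controls changes the CBPE array alone.

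**Figure D4:**
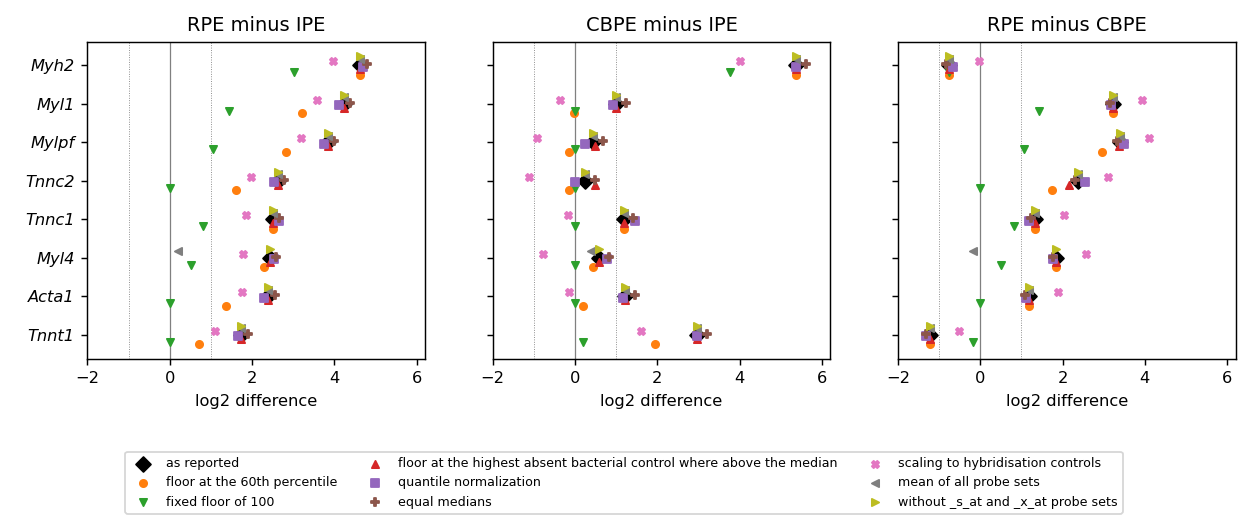
Log2 differences of 8 members as reported (black diamonds) and under 8 alternatives (coloured markers), with RPE minus IPE on the left, CBPE minus IPE in the middle, RPE minus CBPE on the right and dotted lines at 2-fold. Mylpf and Myl1 stay above 2-fold in the left and right panels under every alternative, of which averaging the probe sets and removing cross-matching ones cannot move them, as each has 1 probe set. Scaling to the hybridisation controls shifts all members alike, to the left in the left and middle panels and to the right in the right panel.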

How the data were processed

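Each of 45101 probe sets, 64 of them controls, has 1 deposited linear intensity for every array, and the summary software is not given in the sources used here. Oligo-dT primed the reverse transcription of 1 µg of RNA, which was then labelled by in vitro transcription, per the labels' protocols. The 2% trimmed mean of the deposited intensity was 100.001 on every array, and this scaling was kept. An intensity carries no depth, and precision is limited by having 1 array for each culture. Symbols came from the platform table, updated by gene identifier to RefSeq GRCm38.p6, whose promoters were also used. Of 35890 listed probe sets, 34958 had 1 gene and 932 several, and the last were not used for names. All 46 members had a probe set, 86 in all, and 20 members had more than 1. Promoters were found for 38 members.

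Signals under the floor, the 50th percentile of non-control probe sets, were raised to it before log2. A gene was counted as different at 2-fold with at least 1 signal above its floor. With 1 array per culture no test was made. The counting was tested on simulated data, which checks the counting and does not give the error of calls near the floor. Members were named where above a floor on any array, and other genes from 16 lists by mean signal among those at least 2-fold different. Members and lists were chosen with earlier results of these data known. Python 3.11.15, numpy 2.4.6 and pandas 2.3.3 were used.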

Additional observations from a re-analysis of the deposited data

How the results depend on the processing

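Each count was recomputed under 8 alternatives, and 56 of 72 counts stayed within 1.5 times the reported one. Some of these could not change, so the tally overstates stability. Equal medians and scaling to the hybridisation controls move an array and its floor alike, which fixes the counts above the floor. The floor at the absent controls changes the CBPE array alone, which fixes the counts of RPE and IPE. With the floor at the 60th percentile, 6 members were above the floor in IPE, 9 were at least 2-fold higher in RPE relative to IPE, 4 were higher in CBPE relative to IPE and 1 was lower in RPE relative to CBPE, and Myl1 in CBPE minus IPE became -0.020. With a fixed floor of 100, 8 members were above it in RPE, 5 in CBPE and 4 in IPE, 4 were higher in RPE relative to IPE, 2 in CBPE relative to IPE and 2 in RPE relative to CBPE, where 0 were lower. Under both, fewer genes pass the floor by construction. With scaling to the hybridisation controls, 9 were higher in RPE relative to IPE, 2 higher in CBPE and 5 lower in CBPE relative to IPE, and 0 lower in RPE relative to CBPE. Of all genes measured, 2.91% were then higher and 31.7% lower in RPE against IPE, 1.54% higher and 66.0% lower in CBPE against IPE, and 28.3% higher and 0.877% lower in RPE against CBPE. Log2 differences in CBPE minus IPE then became -0.37 for Myl1, -0.15 for Acta1, -0.18 for Tnnc1 and -0.14 for Actn2. That scaling shifts every gene of an array alike, with the median of all genes at -1.33 in CBPE minus IPE, and these 4 values lie within 2-fold. Of all genes called in CBPE against IPE, 2.28% were then higher, against 67.9% with equal medians, 58.3% with quantile normalization and 48.3% as reported. In RPE against IPE these shares were 8.40%, 63.3%, 58.0% and 48.6% in the same order of settings, and in RPE against CBPE 97.0%, 35.6%, 39.5% and 47.0%. Averaging all probe sets of a gene made 2 members lower in CBPE relative to IPE, and RPE minus CBPE became -0.17 for Myl4, -0.042 for Nebl and -0.042 for Mb, since averaging with dimmer probe sets brought each under its RPE floor. No paired analysis was possible because each culture had 1 array. Signals near the floor, as for most members, limit what can be read from their folds.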

Other observations

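Motifs were counted in the 250 bases before the start sites of 49 promoters of 38 members, on both strands, beside all 32851 promoters of the RefSeq table. The E-box CANNTG, a palindrome in its fixed letters, was present in 77.6% of the member promoters and 66.2% of all promoters. Its form CAGCTG, which is contained in CANNTG, was present in 36.7% against 13.0%. The CArG box, which serum response factor binds, was present in 16.3% against 1.47%, in 7 members: Acta1, Actc1, Ldb3, Myh4, Myl3, Myom1 and Nebl. The MEF2 site was present in 4.08% against 0.508%, in Myoz2 and Ttn, which were both under the floor by their chosen probe sets. TATAAA was present in 18.4% against 12.4%. Start sites of a gene can share bases, and a match in these windows is a description of the sequence.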
